A study of Mus musculus with 40 samples.

Results

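The SR splicing factors and the heterogeneous nuclear ribonucleoproteins (hnRNPs) were followed in RNA-Seq of mouse embryonic fibroblasts (MEFs). Members were taken by symbol alone, as the genes named Srsf with a number or Hnrnp (older form Hnrp) with letters or digits, which gave 31 of the 24062 genes counted, 11 SR genes and 20 hnRNP genes. SR proteins carry RNA recognition motifs and a tail rich in arginine-serine repeats, bind exonic enhancers and recruit the spliceosome, and are controlled by kinases that phosphorylate the tail. hnRNPs coat nascent transcripts, often repress the use of splice sites that SR proteins favour, and act in mRNA export, stability and translation. Many genes of both families control their own level through alternative exons with premature stop codons, whose inclusion sends the transcript to nonsense-mediated decay (NMD).

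The MEFs were primary cells at passage 3, grown from embryos at 13.5 days post coitum of a mixed C57BL/6J-129P2OlaHsd strain. Their genotype at Sall2, which encodes a zinc finger transcription factor, was WT, heterozygous (Het) or KO, and they were left untreated (control) or exposed to 1 µM doxorubicin, a DNA-intercalating topoisomerase poison, for 16 h. The labels give 1 WT, 1 Het and 3 KO embryos in each treatment. Under doxorubicin the columns of KO embryos 2 and 3 were identical in every one of the 24062 genes, and they entered once, as KO embryo 2, so that 5 control and 4 doxorubicin libraries were compared. The KO line was made in 129P2 embryonic stem cells and carries a 129P2 segment around Sall2 on chromosome 14, so the loss of Sall2 and that segment cannot be told apart. Sall2 stood at 38.0 CPM (counts scaled by TMM-adjusted library sizes) in WT, at 24 CPM in Het and between 19.1 and 24.4 CPM in KO without treatment, and with doxorubicin 9.36, 7.80 and between 3.72 and 4.19 CPM. The KO libraries therefore still held Sall2 counts, and counts per gene do not show whether those reads lie in the part of the gene that was removed.

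Library totals lay between 15560728 and 24122414 counts. A pair of untreated libraries, Het and KO embryo 3, stood apart from the others. Their summed level over 18 interferon-stimulated genes was 3028 and 3395 CPM, against 131 to 155 CPM in the untreated libraries of WT and KO embryos 1 and 2. Their summed level over 11 fibroblast markers was 21361 and 17259 CPM, against 82974 to 100140 CPM, and that over 10 macrophage markers (9 of them in the table) was 699 and 503 CPM, against 106 to 183 CPM, and none of these 9 was at or under 3 counts in all libraries. With doxorubicin, Het again had the highest interferon sum, 1697 CPM against 460 to 575 CPM, the lowest fibroblast sum, 23183 CPM against 50201 to 63154 CPM, and the highest macrophage sum, 752 CPM against 97.5 to 146 CPM. The part of these cells or of this interferon response in the results below was not tested, and in bulk RNA fewer cells of a type and less RNA per cell cannot be told apart. The numbers of genes that fell or rose in the doxorubicin tests are given with and without them.

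The summed level of both families was lower with doxorubicin in every embryo with a library in both treatments. The 11 SR genes summed to 1256 CPM in WT, 1725 CPM in Het and 1410, 1334 and 2020 CPM in KO embryos 1, 2 and 3 without treatment, and to 479 CPM in WT, 776 CPM in Het and 470 and 498 CPM in KO embryos 1 and 2 with doxorubicin. The 20 hnRNP genes summed to 4644 CPM in WT, 2994 CPM in Het and 5010, 4720 and 3198 CPM in KO without treatment, and to 2447, 1593, 2711 and 2317 CPM in WT, Het and KO embryos 1 and 2 with doxorubicin. For each family all 4 doxorubicin libraries lay below all 5 control libraries. The share of all counts that fell on the 31 genes was between 0.486% and 0.634% in control and between 0.275% and 0.320% with doxorubicin.

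**Figure D1:**
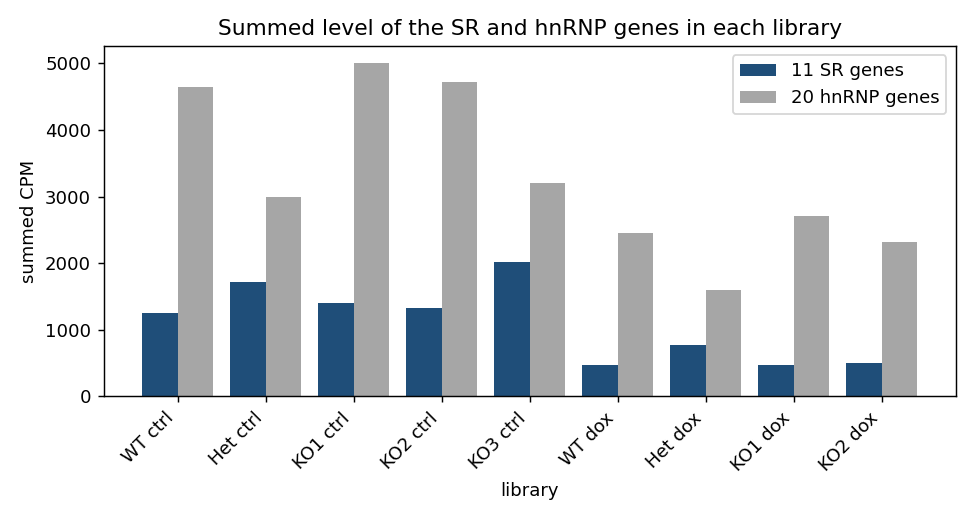
Summed level in CPM (vertical axis) of the 11 SR genes (dark bars) and the 20 hnRNP genes (grey bars) in each of the 9 libraries, 1 library per pair of bars and no error bars. The SR bars lie between 1256 and 2020 CPM in control (ctrl) and between 470 and 776 CPM with doxorubicin (dox), and the hnRNP bars between 2994 and 5010 CPM and between 1593 and 2711 CPM.

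Doxorubicin was compared with control over the 9 libraries with genotype as a covariate, in the quasi-likelihood test of edgeR at a Benjamini-Hochberg FDR under 0.01. All 31 members passed the filter on low counts. Of these, 17 fell (7 SR and 10 hnRNP genes) and 0 rose, while over all 16656 genes tested 18.7% fell and 21.9% rose. The fitted log2 fold change was below 0 in 30 of the 31 members, with a median of -0.97, of -1.62 over the SR genes and of -0.82 over the hnRNP genes, beside a median of 0.02 over all genes tested. The Spearman correlation of control level with log2 fold change was -0.467 over 14933 protein-coding genes tested. Over the members it was -0.101 (-0.618 over SR and 0.162 over hnRNP genes). The median control level was 7.1 log2 CPM in members and 4.1 in those protein-coding genes. Its part in the gap was not tested. The same labels give numbered embryos in both treatments, and with the embryo as a block, which leaves KO embryo 3 without a partner and so without weight, 27 members fell (8 SR and 19 hnRNP genes) and 0 rose, against 26.9% and 30.0% of all genes. That blocked fit takes the duplicated doxorubicin library as the one of KO embryo 2, which the files cannot settle. The interferon, fibroblast and macrophage sums of that library were 575, 50201 and 97.5 CPM. Without treatment they were 135, 90950 and 106 CPM in KO embryo 2 and 3395, 17259 and 503 CPM in KO embryo 3. Het, which stood apart without treatment, did so with doxorubicin too. What these sums say of the placing was not tested. With the duplicated library taken as KO embryo 3, 17 members fell (8 SR and 9 hnRNP genes) and 0 rose, against 17.9% and 20.7% of all genes, so the rise to 27 depended on the placing. Without both Het libraries and the untreated library of KO embryo 3, 28 members fell and 1 rose, against 31.4% and 35.1% of all genes. Without the WT control library, the WT doxorubicin library or the library of KO embryo 2 with doxorubicin the number that fell was 11 in each case, against 11.6%, 11.8% and 11.9% of all genes, and without the control library of KO embryo 3 it was 28, against 27.5% of all genes. All doxorubicin libraries lay below all control libraries in 20 members (8 SR and 12 hnRNP genes) and above them in 0, against 22.1% and 24.3% of all genes tested.

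**Figure D2:**
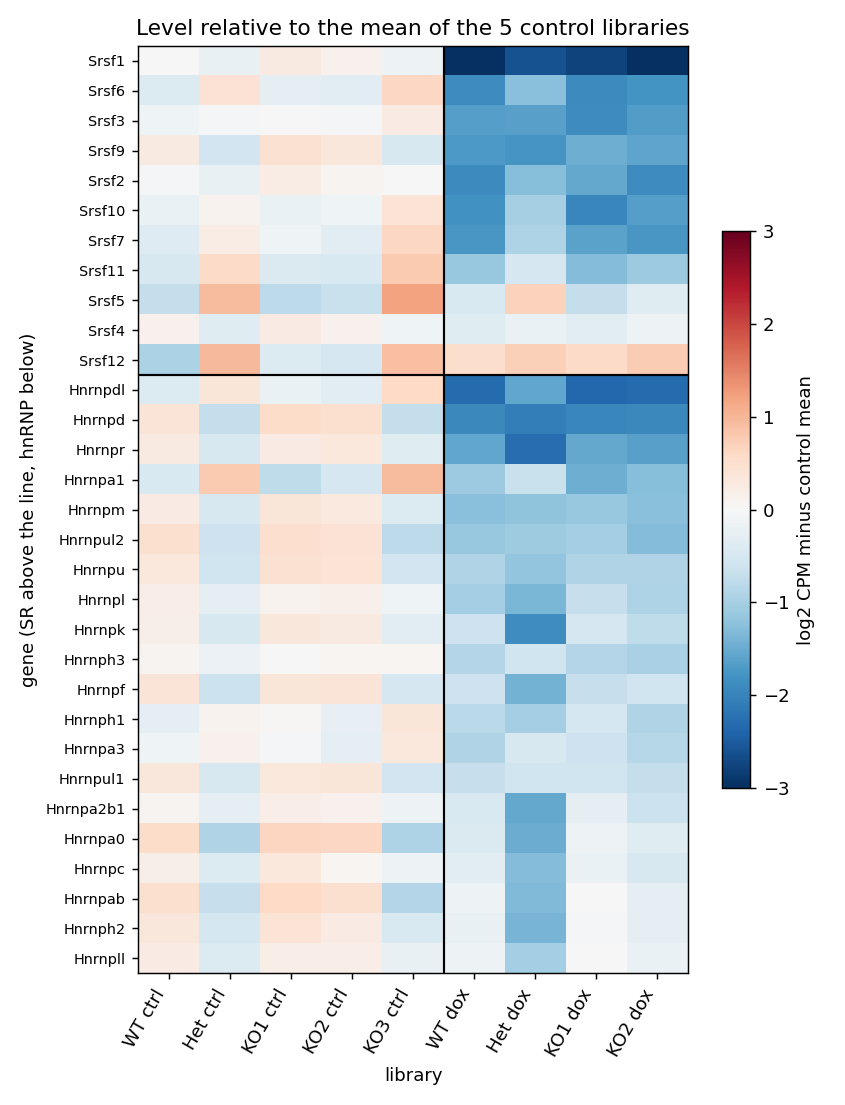
Log2 CPM of each member (rows, SR above the line and hnRNP below, ordered by fitted fold change) in each library (columns) minus the mean of the 5 control libraries, with blue for lower and red for higher, and colours saturated at a difference of 3. The doxorubicin columns (dox) are blue for nearly all rows, with Srsf12 and, in Het, Srsf5 as exceptions, and the untreated columns of Het and KO embryo 3 differ from those of WT and KO embryos 1 and 2.

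Among the SR genes, Srsf1, the prototype of the family and a factor for both constitutive and alternative splicing, had the largest fitted decrease. It reached 259 CPM in WT, 224 CPM in Het and 313, 283 and 235 CPM in KO embryos 1, 2 and 3 without treatment, and 32.8 CPM in WT, 42.4 CPM in Het and 37.9 and 31.7 CPM in KO embryos 1 and 2 with doxorubicin. The arms were far apart, with the highest treated library at 42.4 CPM and the lowest control library at 224 CPM. Srsf1 fell 7.15-fold (log2 fold change -2.84, SE 0.192, FDR 1.61e-05, edgeR), and passed the threshold in each of 18 settings of the test, with log2 fold changes from -3.05 to -2.71.

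Srsf6, a regulator of alternative exons, had 184 CPM in WT, 330 CPM in Het and 200, 195 and 382 CPM in KO without treatment, and 66.8 CPM in WT, 103 CPM in Het and 65.0 and 71.0 CPM in KO with doxorubicin. Het was the highest treated library and Het and KO embryo 3 the highest control libraries, so the spread within each arm followed the libraries that stood apart, yet the arms did not overlap. Its fitted log2 fold change was -1.75 (SE 0.248, FDR 0.000468, edgeR). Srsf2 (SC35), which binds exonic enhancers and is a marker of nuclear speckles, was one of the 2 SR genes with the highest level per length, the other being Srsf6. It had 176 CPM in WT, 158 CPM in Het and 215, 194 and 184 CPM in KO without treatment, and 49.1, 76.2, 63.8 and 49.8 CPM in WT, Het and KO embryos 1 and 2 with doxorubicin. Srsf2 fell by 1.62 on the log2 scale (SE 0.188, FDR 0.000166, edgeR).

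The other SR genes that fell were Srsf3 (log2 fold change -1.70), Srsf9 (-1.63), Srsf10 (-1.62), a factor that represses splicing when dephosphorylated, and Srsf7 (-1.53). With Srsf1, Srsf2 and Srsf6 they make 7 SR genes, each of them past the threshold in all 18 settings. Srsf11 had a log2 fold change of -1.08 with an FDR of 0.0134 (edgeR), of -0.79 with an FDR of 0.000275 in the blocked fit, and of -1.10 with an FDR of 0.00427 in that fit with the duplicated library as KO embryo 3. In Srsf11 the untreated libraries of Het and KO embryo 3, at 280 and 325 CPM, were far above the other 3 control libraries at 134 to 137 CPM.

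The remaining SR genes, Srsf4, Srsf5 and Srsf12, did not pass in the main fit or in the blocked fit over all genotypes with either placing of the duplicated library. Srsf5, a factor first known as an early response gene of growing liver cells, had 82.5 CPM in WT, 78.7 and 84.8 CPM in KO embryos 1 and 2, 262 CPM in Het and 310 CPM in KO embryo 3 without treatment. With doxorubicin it had 98.9 CPM in WT, 217 CPM in Het and 81.7 and 105 CPM in KO, so the arms overlapped and the spread between embryos exceeded the difference between treatments. Its log2 fold change was -0.40 (SE 0.436, FDR 0.465, edgeR), 0.10 with the embryo as a block (-0.35 with the duplicated library as KO embryo 3) and 0.23 without the 3 libraries that stood apart. The sign thus depended on the setting, with a value below 0 in 15 of 18. Srsf4 had log2 fold changes of -0.24 and, in the blocked fit, -0.28, at 8.47 to 13.0 CPM in control and 8.56 to 9.91 CPM with doxorubicin.

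Srsf12 was the only member with a fitted value above 0 in the main test. It was also the SR gene with the lowest level, at 0.503 CPM in WT (10 counts), 2.21 CPM in Het (54 counts) and 0.776, 0.733 and 2.07 CPM (15, 13 and 46 counts) in KO embryos 1, 2 and 3 without treatment. With doxorubicin it had 1.59 CPM in WT, 1.81 CPM in Het and 1.65 and 1.88 CPM in KO, from 30 to 41 counts each. The treated libraries were close together and lay between the low and the high control libraries. The log2 fold change was 0.60 (SE 0.448, FDR 0.287, edgeR), and it was 1.37 (SE 0.297, FDR 0.00186, edgeR) without the 3 libraries that stood apart, where Srsf12 was the member that rose.

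**Figure D3:**
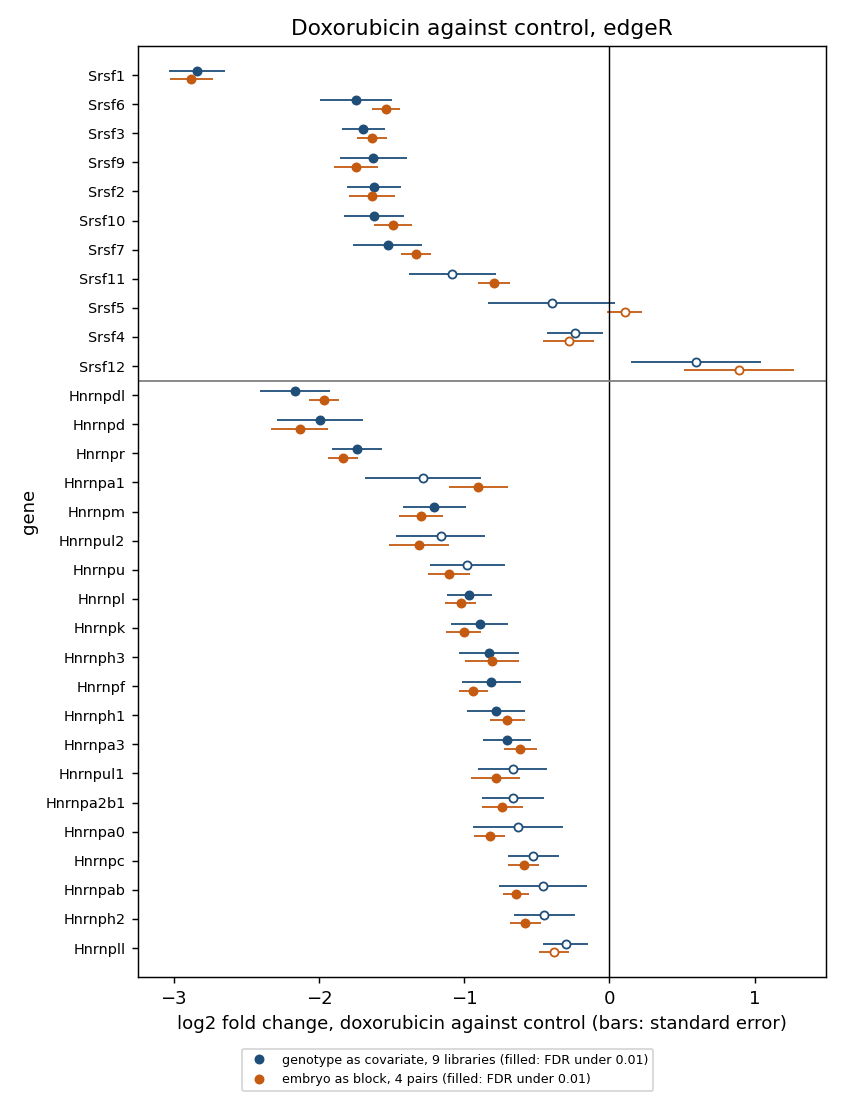
Fitted log2 fold change of doxorubicin against control (horizontal axis) with its standard error (bars) for the 31 members, from the fit with genotype as a covariate over 9 libraries (blue) and with the embryo as a block and the duplicated library as KO embryo 2 (orange); filled points passed an FDR under 0.01. Srsf1 is farthest to the left at -2.84 and Srsf12 farthest to the right at 0.60, and 17 blue and 27 orange points are filled.

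Among the hnRNP genes, the largest fitted decreases were those of a pair of paralogs, Hnrnpdl and Hnrnpd. Hnrnpd (AUF1) binds AU-rich elements and promotes the decay of the mRNAs that hold them. Hnrnpdl had 94.1 CPM in WT, 161 CPM in Het and 109, 98.9 and 192 CPM in KO without treatment, and 25.2 CPM in WT, 42.6 CPM in Het and 24.6 and 25.2 CPM in KO with doxorubicin. Its log2 fold change was -2.17 (SE 0.241, FDR 0.000135, edgeR). Hnrnpd had 158 CPM in WT, 73.8 CPM in Het and 178, 170 and 74.3 CPM in KO without treatment, and between 28.8 and 31.9 CPM in the 4 doxorubicin libraries. The paralogs thus differed in the libraries that stood apart, where Hnrnpdl was high and Hnrnpd low, while both were lowest with doxorubicin. The log2 fold change of Hnrnpd was -1.99 (SE 0.294, FDR 0.000574, edgeR).

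Hnrnpr, an RNA-binding protein with known roles in axonal mRNA transport, had 96.3 CPM in WT, 56.9 CPM in Het and 94.9, 100 and 62.6 CPM in KO without treatment, and 26.9 CPM in WT, 16.2 CPM in Het and 27.4 and 25.6 CPM in KO with doxorubicin. It fell by 1.74 on the log2 scale (SE 0.173, FDR 8.00e-05, edgeR), with no overlap of the arms. Hnrnpm, Hnrnpl, which binds CA repeats, and Hnrnpk, which binds C-rich RNA, fell by 1.21, 0.97 and 0.89 on the log2 scale. The other hnRNP genes that fell were Hnrnph3 (log2 fold change -0.83), Hnrnpf (-0.81) and Hnrnph1 (-0.78), which bind runs of G, and Hnrnpa3 (-0.71). Of the 10 hnRNP genes that fell, Hnrnpd, Hnrnpdl, Hnrnpl and Hnrnpr passed in all 18 settings.

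The hnRNP genes with the highest level per length did not pass in the main test. Hnrnpab had a mean of 151 ± 65.3 RPKM (SD, n = 5 control libraries), in CPM per kilobase of annotated exons, and Hnrnpa2b1 had 94.2 ± 12.4 RPKM, beside 62.7 ± 7.16 RPKM for Srsf2 and 53.7 ± 19.0 RPKM for Srsf6. With doxorubicin these means were 108 ± 36.5, 59.7 ± 19.7, 20.2 ± 4.36 and 15.9 ± 3.76 RPKM (SD, n = 4). Hnrnpab had 536 CPM in WT, 238 CPM in Het and 583, 536 and 207 CPM in KO without treatment, and 343 CPM in WT, 153 CPM in Het and 385 and 316 CPM in KO with doxorubicin, so the treated WT and KO libraries lay above the untreated Het library. Its log2 fold change was -0.46 (SE 0.303, FDR 0.232, edgeR), and with the embryo as a block it was -0.64 (SE 0.0899, FDR 0.000317, edgeR). With the duplicated library taken as KO embryo 3 in that block it was -0.31 (FDR 0.362, edgeR), so the blocked call was lost. Hnrnpa2b1, a reader of RNA sorting signals, had 656 CPM in WT, 512 CPM in Het and 704, 672 and 555 CPM in KO without treatment, and 449 CPM in WT, 213 CPM in Het and 515 and 396 CPM in KO with doxorubicin. Its log2 fold change was -0.66 (SE 0.216, FDR 0.0276, edgeR) and in the blocked fit -0.74 (FDR 0.00176, edgeR), or -0.67 (FDR 0.0411, edgeR) with the duplicated library as KO embryo 3.

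Hnrnpu, a nuclear scaffold protein, Hnrnpul1, Hnrnpul2, Hnrnpa0, Hnrnpa1, Hnrnpc, which binds U-rich tracts, Hnrnph2 and Hnrnpll make up the rest, with log2 fold changes from -1.28 (Hnrnpa1) to -0.30 (Hnrnpll) that did not pass in the main test. All of these 8 except Hnrnpll passed in the blocked fit, where the FDR of Hnrnpll was 0.0101 (edgeR). With the duplicated library as KO embryo 3 in the block, 1 of the 8 passed, Hnrnpul2 (FDR 0.00994, edgeR), and Hnrnpf, which fell in the main test, did not pass (FDR 0.0173, edgeR). Hnrnpa1 was counted at only 4.5 to 14.8 CPM in control, and 58.5% of its longest annotated transcript occurs nearly identically in 7 other genes, so its counts are uncertain.

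**Figure D4:**
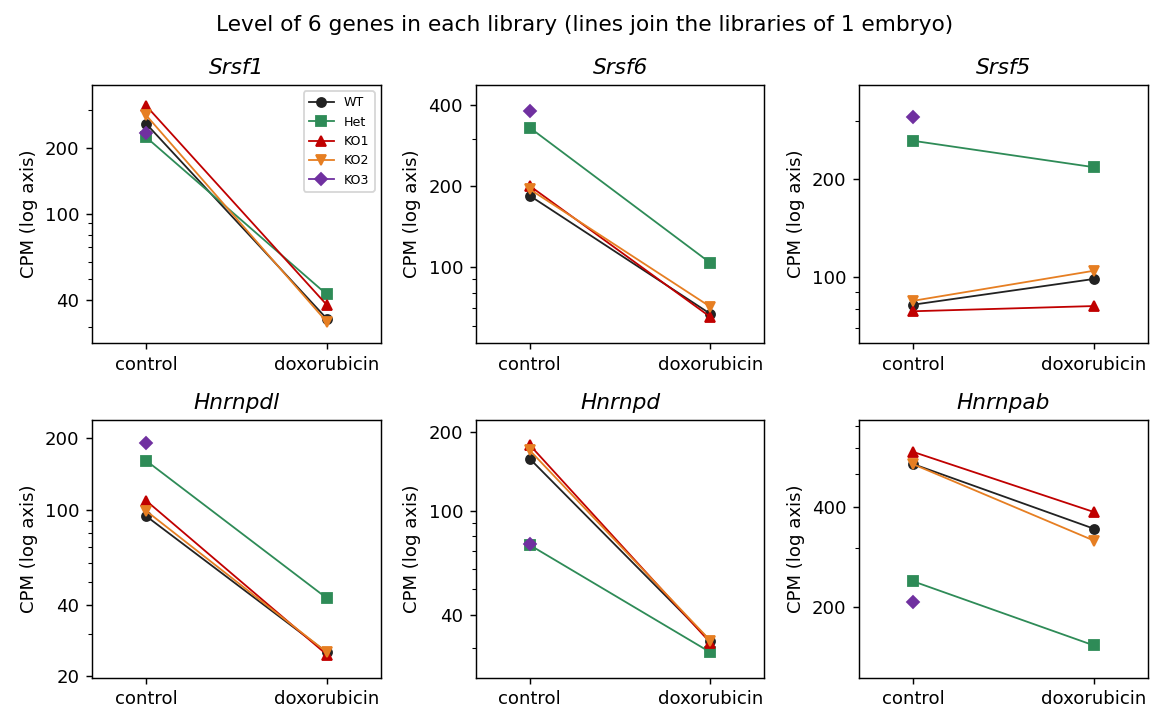
Level in CPM (log axis) of 6 members in each library, without treatment (left in each panel) and with doxorubicin (right), with lines joining the libraries of 1 embryo; KO embryo 3 has a point in control only. Srsf1 drops from 224 to 313 CPM to 31.7 to 42.4 CPM, the lines of Srsf5 are nearly flat with Het and KO embryo 3 on top, and Het and KO embryo 3 lie below the other embryos in Hnrnpd and Hnrnpab.

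Within embryos, the level with doxorubicin was lower than that without it for 29 of 31 members in WT, for 30 in Het, and for 29 in each of KO embryos 1 and 2. Over all genes tested, between 45.8% and 51.5% were lower. The 20 hnRNP genes were lower in each of the 4 embryos. These counts take the duplicated library as KO embryo 2. Set against the control library of KO embryo 3, that library was higher in some hnRNP genes, among them Hnrnpab (316 against 207 CPM). The differences for Srsf1 (log2 CPM) were -2.98 for WT, -2.40 for Het, and -3.04 and -3.16 for the KO pairs, and that for Hnrnpr ranged from -1.96 to -1.79. Differences were less even for Hnrnpul2, at -1.61 for WT, -0.44 for Het, and -1.51 and -1.72 for the KO pairs.

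KO was the genotype with more than 1 distinct library in each treatment, and was also compared alone. In its 3 control and 2 doxorubicin libraries 6 members fell and 0 rose, against 4.76% and 8.06% of 14904 genes (edgeR, FDR under 0.01). These were Srsf1 (log2 fold change -2.96), Hnrnpdl (-2.39), Srsf10 (-1.84), Srsf3 (-1.81), Srsf2 (-1.76) and Hnrnpr (-1.66). With the embryo as a block, 27 members fell and Srsf12 rose (log2 fold change 1.27, FDR 0.00551, edgeR), against 32.0% and 35.5% of all genes, and this fit rests on 2 pairs with 1 residual degree of freedom. With the duplicated library as KO embryo 3 in that block, 10 members fell and 0 rose, against 7.0% and 10.7% of all genes, and the log2 fold change of Srsf12 was 0.47 (FDR 0.730, edgeR). Without the control library of KO embryo 3, 21 members fell, against 26.2% of all genes. Without any other 1 of the KO libraries 0 members fell in edgeR, against 0.0% to 0.0674% of all genes, while between 10 and 15 members had an unadjusted p under 0.05. With all 5 libraries, DESeq2 called 12 members lower (14.7% of all genes) and the conditional exact test of edgeR 11 (11.9%).

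Genotype made no difference that the tests could detect in either family. For the slope on Sall2 dosage (WT 1, Het 0.5, KO 0) with treatment as a covariate, edgeR called 0 of 16656 genes (0.0%) and 0 members. No member had an unadjusted p under 0.05, and slopes ranged from -0.33 to 0.09, with a median SE of 0.332 and with the smallest unadjusted p for Hnrnph1, 0.397 (edgeR). For KO against WT without treatment 0 of 14470 genes (0.0%) and 0 members passed, 10 genes and 0 members had an unadjusted p under 0.05, and the member with the smallest p was Srsf12, with a difference of 1.28 (SE 1.12, unadjusted p 0.305, edgeR). For KO against WT with doxorubicin 12 of 15256 genes (0.0787%) were lower and 18 (0.118%) higher, 0 members passed, and no member had an unadjusted p under 0.05. There the differences of the members ranged from -0.27 (Hnrnpa1) to 0.23 (Hnrnpl) with a median SE of 0.213, and the smallest p was that of Srsf2 (0.21, SE 0.198, unadjusted p 0.287, edgeR). The test of whether the doxorubicin effect changed with Sall2 dosage called 0 of 16656 genes (0.0%) and 0 members, with the smallest p for Srsf3 (0.33, SE 0.380, unadjusted p 0.415, edgeR). In each of these comparisons the other settings run, DESeq2 among them, also called 0 members. WT and Het have 1 embryo each, so the spread rests on KO in the comparisons of KO with WT, and these misses do not show that the genotypes were alike.

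Hnrnpc, chosen for its position, lies on chromosome 14 at chr14:52073377-52104028 (mm10), 207144 bases from Sall2. Its KO against WT difference was -0.04 (SE 0.417) without treatment and -0.02 (SE 0.232) with doxorubicin, both smaller than the error.

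The libraries that stood apart differed from the others in a pattern that was nearly the same in both families' members. Het minus WT and KO embryo 3 minus the mean of KO embryos 1 and 2, all without treatment, share no library, and they had the same sign in 30 of 31 members, with a Pearson correlation of 0.978 across members and of 0.884 across 12132 genes, which are not independent replicates. Of the SR genes, 7 were higher in both, among them Srsf5 (differences of 1.66 and 1.92 in log2 CPM), Srsf12 (1.94 and 1.35) and Srsf11 (1.06 and 1.24), and 4 were lower in both (Srsf1, Srsf2, Srsf4 and Srsf9). Of the hnRNP genes, 15 were lower in both, with Hnrnpa0 at -1.44 and -1.56, and 4 were higher in both (Hnrnpa1, Hnrnpa3, Hnrnpdl and Hnrnph1). The direction of the hnRNP genes depended on the scaling. With TMM 16 of 20 were lower than WT in Het and 16 in KO embryo 3, whereas with library totals alone 12 and 10 were lower, and the median of all genes then shifted to 0.61 and 0.54 (log2). The SR genes were higher than WT in 7 of 11 in Het and 8 in KO embryo 3 with TMM and in 10 and 10 with totals alone. Of all 16656 genes tested, 8549 in Het and 8295 in KO embryo 3 were higher with TMM, and 7764 and 7904 lower. With totals alone 12432 and 11806 were higher and 3881 and 4393 lower, so the counts of both families moved with a shift of all genes. The interferon, fibroblast and macrophage sums given above moved with this pattern, and their part in it was not tested.

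**Figure D5:**
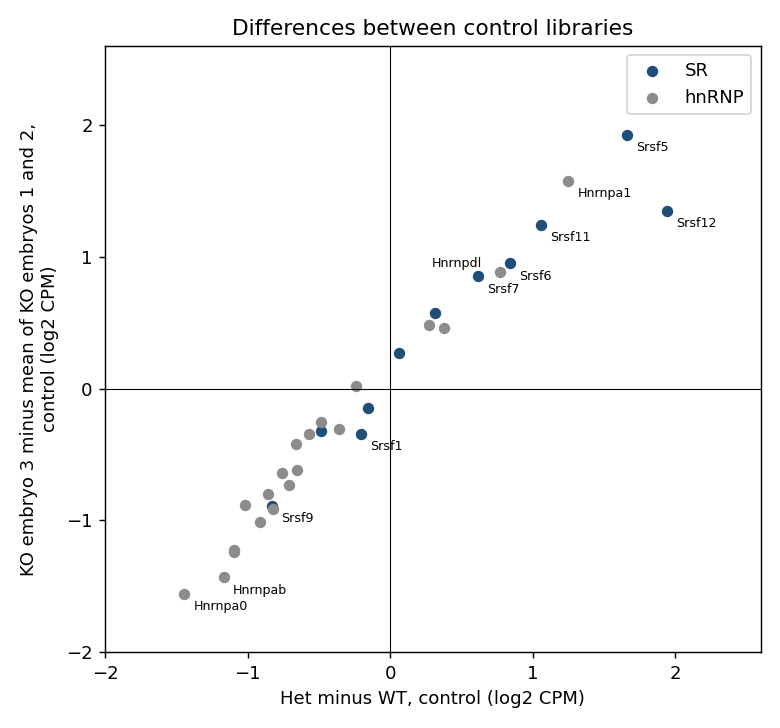
Difference in log2 CPM without treatment, Het minus WT (horizontal axis) against KO embryo 3 minus the mean of KO embryos 1 and 2 (vertical axis), 1 point per member with SR genes dark and hnRNP genes grey. Points lie along a rising line, from Hnrnpa0 at -1.44 and -1.56 to Srsf5 at 1.66 and 1.92.

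Gene structure was set beside these values. In GENCODE M21, 9 of 11 SR genes (81.8%) and 10 of 20 hnRNP genes had at least 1 transcript annotated as an NMD target, beside 26.0% of 14933 protein-coding genes tested. The median log2 fold change with doxorubicin was -1.28 in the 19 members with such a transcript and -0.69 in the 12 without, and -0.23 and 0.10 in protein-coding genes with and without one. Within the families these medians were -1.62 and -0.51 for SR genes and -0.97 and -0.69 for hnRNP genes. The SR genes without one were Srsf10 and the low Srsf12. Counts per gene do not separate these isoforms from the coding ones. The SR genes were short, with a median span of 7228 bases, and the hnRNP genes had a median span of 12964 bases, against 23617 bases in protein-coding genes tested. Across the 31 members the Spearman correlation of span with log2 fold change was 0.155 (0.491 over the 11 SR and -0.177 over the 20 hnRNP genes), and across protein-coding genes it was -0.143. Stretches nearly identical to other genes covered 69.3% of the transcript of Hnrnpf, 64.1% of Srsf4, 51.7% of Srsf5, 49.5% of Srsf3, 46.4% of Hnrnpk and 39.4% of Srsf2, and exons shared with an overlapping gene made up 43.0% of Srsf4, 29.1% of Hnrnpab, 26.5% of Hnrnpf and 25.3% of Srsf2. The sources used here do not give the strand setting of the counting, so values of these genes are less certain.

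The promoters of 3 SR genes are shown for the contrast between members that fell (Srsf1 and Srsf6) and a member that did not (Srsf5). The 250 bases before the RefSeq start (GRCm38.p6, plus strand, 5′ to 3′) are at chr11:88047123-88047372 for Srsf1, chr2:162931258-162931507 for Srsf6 and chr12:80945249-80945498 for Srsf5. Capitals mark matches, on either strand, to the CCAAT box (CCAAT), the GC box (GGGCGG), the ETS core (CCGGAAG) and the TATA box (TATAAA), and in Srsf5 the last GC box and the last ETS core overlap.
Srsf1: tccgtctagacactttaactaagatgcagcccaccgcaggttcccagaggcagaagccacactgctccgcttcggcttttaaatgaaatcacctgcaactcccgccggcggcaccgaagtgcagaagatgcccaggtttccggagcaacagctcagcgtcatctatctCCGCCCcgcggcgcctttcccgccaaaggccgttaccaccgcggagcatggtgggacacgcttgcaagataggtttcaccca
Srsf6: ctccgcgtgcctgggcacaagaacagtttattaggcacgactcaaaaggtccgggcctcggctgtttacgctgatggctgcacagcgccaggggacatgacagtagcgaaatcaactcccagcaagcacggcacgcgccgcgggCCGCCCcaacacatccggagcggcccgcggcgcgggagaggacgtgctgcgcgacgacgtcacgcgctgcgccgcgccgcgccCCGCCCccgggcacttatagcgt
Srsf5: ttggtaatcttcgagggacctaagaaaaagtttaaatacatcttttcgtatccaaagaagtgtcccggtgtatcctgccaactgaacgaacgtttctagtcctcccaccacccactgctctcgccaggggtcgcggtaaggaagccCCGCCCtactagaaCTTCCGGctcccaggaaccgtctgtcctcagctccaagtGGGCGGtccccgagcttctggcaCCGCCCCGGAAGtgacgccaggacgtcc
Srsf1 holds 1 GC box, Srsf6 holds 2, and Srsf5 holds 3 GC boxes and 2 ETS cores, and none of them holds a CCAAT or TATA match in this window. Of the 31 members, 29 had a promoter in the table (not Hnrnpll and Hnrnpul2). The GC box was found in 23 of 29 (79.3%) against 32.9% of 27025 genes of all kinds, the CCAAT box in 15 (51.7%) against 34.5%, the ETS core in 6 (20.7%) against 7.05%, and the TATA box in 3 (10.3%) against 13.0%. The median number of CpG dinucleotides in the window was 23 in members and 6 in all genes, and the median GC content was 65.2% and 52.0%. A match describes letters and is not a measured site.

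Genes that act with the families were counted in the main doxorubicin test, where 18.7% of all genes fell and 21.9% rose. Of 9 SR protein kinases, 4 fell and 0 rose, among them Srpk2 (log2 fold change -1.83, FDR 0.000159) and Srpk1 (-1.35, FDR 0.000359), which phosphorylate the arginine-serine tail. Of 18 SR-related proteins 12 fell and 0 rose, with Srek1 at -2.14 and the speckle scaffold Srrm2 at -2.0. Of 10 NMD factors 7 fell and 0 rose, with the kinase Smg1 at -1.43 and the endonuclease Smg6 at -1.32. The median log2 fold changes of these lists were -1.20, -1.23 and -0.80, against 0.02 over all genes. Without the 3 libraries that stood apart, 5 of 8 SR protein kinases tested fell and 1 rose. In that fit 16 of the 18 SR-related proteins and 8 of the 10 NMD factors fell and 0 rose, against 31.4% and 35.1% of all genes.

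In the spliceosome core, 11 of 51 tested genes fell and 3 rose, with a median of -0.34. The decreases included Sf3b3 (log2 fold change -2.28) of the branch point complex and the helicase Ddx23 (-1.57), and the increases Snrnp25 (1.71) of the minor spliceosome and Sf3b5 (1.15). With the embryo as a block and the duplicated library as KO embryo 2, 23 of the 51 fell and 4 rose, against 26.9% and 30.0% of all genes. Without the 3 libraries that stood apart 28 of 50 fell and 7 rose, against 31.4% and 35.1% of all genes. Of 41 other splicing regulators 22 fell and 6 rose, with a median of -0.87. Without those 3 libraries 31 fell and 6 rose, against the same 31.4% and 35.1% of all genes. Rbm25 (-2.23) and Pcbp4 (-2.16) had the largest decreases. Esrp1, a regulator of epithelial splicing, had 0 counts in each control library and 76 to 322 counts with doxorubicin, at least 54.6-fold higher than a floor of 3 counts per control library, and Rbfox3, a neuronal regulator, had 0 to 1 counts in control and 4 to 19 counts with doxorubicin. The floor covers counting error only.

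As a check of the treatment, 14 p53 target genes were counted, with a median log2 fold change of -0.23. Their summed level was 2902 to 4002 CPM in control and 3023 to 3559 CPM with doxorubicin, so the arms overlapped. Of these, 1 rose, Pmaip1 (log2 fold change 2.19, FDR 0.000500, edgeR), and 1 fell, Phlda3 (-1.46), against 21.9% and 18.7% of all genes. The 18 interferon-stimulated genes had a median log2 fold change of -0.75. Without the 3 libraries that stood apart that median was 2.70, and 15 of these genes rose and 1 fell. In that fit 2 of the 14 p53 target genes rose and 4 fell, against 35.1% and 31.4% of all genes. The p53 target genes were thus not called more often than all genes in either direction.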

How the data were processed

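The authors merged 4 FASTQ files per sample, aligned them to mm10 with HISAT2, and ran HTSeq (union mode, iGenomes genes) to count the reads of each gene. The deposited counts are raw whole numbers for 24062 genes in 10 columns, each matched to a sample (0 columns of no sample). Libraries were prepared with a stranded kit after rRNA depletion. Counts were tested in R 4.3.3 with edgeR 4.0.16 (TMM, filterByExpr, glmQLFit and glmQLFTest, two-sided, Benjamini-Hochberg over all genes tested, FDR under 0.01). Nothing beyond the embryo number says that samples came from separate cultures, so p-values measure the spread between these samples. The members, lists, tests and alternatives were chosen with earlier results of these data known. Full values were given for the 5 members with the largest decrease past the threshold, for increases that did not reach it, and for the 2 SR and 2 hnRNP genes with the highest level per length. In other lists the 2 genes with the largest change past the threshold in each direction were named.

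Log2 CPM used a prior count of 2. The labels number the embryos alike in both treatments, and KO embryo 1 minus KO embryo 2 in control correlated with the same difference under doxorubicin (r = 0.478 across 12132 genes, and 0.286 for KO embryo 1 minus 3 with the duplicated library as embryo 3), so the numbers were taken to pair libraries. The Spearman correlations were 0.388 and 0.331, and over the 31 members the Pearson values were 0.539 and 0.585. These values do not settle which embryo the duplicated library belongs to. Alternatives were DESeq2 1.42.0, RLE scaling, library totals without TMM, no filter, RUVg with 1 factor, the conditional exact test, other FDR thresholds, the embryo as a block, a single fit of all libraries, and each library left out. Leaving out the 3 libraries that stood apart, the totals, and the block in KO alone and in the interaction with the duplicated library as embryo 3 were chosen after the data were seen. The main edgeR fits and those with the embryo as a block were tried on simulated data, except the interaction, and the other settings were not. Genes were annotated with GENCODE M21, and stretches of at least 150 bases at 97% identity were taken as near-identical.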

Additional observations from a re-analysis of the deposited data

Results flagged for a closer look

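Srsf4, Srsf5 and Srsf12, which are 3 of the 4 SR genes that did not pass in the main doxorubicin test, were picked out because the difference between doxorubicin and control within embryos had the opposite sign in Het from that in WT and in both KO embryos. In Srsf4 the difference in log2 CPM was -0.47 in WT, 0.17 in Het and -0.44 on average in KO. In Srsf5 it was 0.26 in WT, -0.27 in Het and 0.18 in KO, and in Srsf12 it was 1.49, -0.28 and 1.13. Set against the control library of KO embryo 3, the duplicated library was lower in Srsf5 (105 against 310 CPM) and Srsf12 (1.88 against 2.07 CPM). That is the direction of Het, so the contrast in Srsf5 and Srsf12 depended on the placing. WT and Het have 1 embryo each and these differences between genotypes were not tested. The Het libraries had the raised interferon and lowered fibroblast sums given above, whose part in these differences was not tested.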

How the results depend on the processing

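The direction of the members with doxorubicin held in all 18 settings for 29 of 31 (28 below 0, Srsf12 above), the exceptions being Srsf5 (below 0 in 15) and Hnrnpab (0.087 with RUVg). How many passed depended on the setting. In the comparison over all genotypes 17 fell, and the number was 27 with the replicate block but 17 with the duplicated library taken as embryo 3, 28 without both Het libraries and KO control embryo 3 (where 1 rose), 11 at an FDR of 0.001, and between 11 and 28 with 1 library left out. The shares of all genes that fell were 18.7%, and 26.9%, 17.9%, 31.4%, 9.26%, and between 11.6% and 27.5%, in the same order. The median log2 fold change of the members (-0.97) was -0.86 with RUVg, -0.86 in the block with the duplicated library taken as embryo 3, -0.87 with library totals, and between -0.99 and -0.88 with 1 library left out. In KO alone 6 fell, and the number was 12 with DESeq2, 23 with RUVg, 27 with the replicate block (where 1 rose) but 10 with the duplicated library as embryo 3, 11 with the exact test, 12 and 0 at an FDR of 0.05 and 0.001, and between 0 and 21 with 1 library left out. Here the shares of all genes were 4.76%, and 14.7%, 27.1%, 32.0%, 7.0%, 11.9%, 15.9% and 0.0%, and between 0.0% and 26.2%, and at an FDR of 0.001 18 members had an unadjusted p under 0.05. In the other settings of the genotype comparisons, where 0 members passed in edgeR, 0 had an unadjusted p under 0.05, except 1 in KO against WT in control with RUVg and 1 in the interaction without the WT doxorubicin library. The block changed no call of the genotype interaction. KO against WT was not run without the WT library in either treatment, since no comparison was left. For lack of residual degrees of freedom, RUVg and either KO library left out were not run for KO against WT with doxorubicin.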
